A study of Mus musculus with 20 samples.

Results

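The genes described here are 10 markers and transporters of intercalated cells, the acid-base cells of the connecting tubule and collecting duct. They are Atp6v1b1, Atp6v0d2, Atp6v0a4, Atp6v1g3, Slc4a1, Slc26a4, Foxi1, Aqp6, Rhcg and Car2. They were found by symbol, whatever the case of the letters, and all 10 are among the 15780 genes of the count tables. None of the 10 had under 408 counts in any mouse, and all 10 passed the filter on low counts along with 13990 genes in all. RNA came from kidneys of 20 female NCr nude mice, an athymic strain that is poor in mature T cells but keeps B cells and macrophages. The mice were aged 7 wk when purchased, before acclimatization and treatment. EIC are engineered immune complexes of human Gd-IgA1, an IgA1 with galactose-deficient O-glycans, and a human recombinant IgG against it, so the model exposes mice to human antibody. Control mice (n = 5) received injections of PBS in place of EIC, and vehicle by gavage. EIC mice (n = 5) received 6 injections of EIC, every one with 0.2 mg of Gd-IgA1 plus 0.1 mg of the recombinant IgG, and vehicle. EIC + S60 and EIC + S120 mice (n = 5 each) received the same EIC and, as gavage for 11 days, sparsentan at 60 or 120 mg/kg. Sparsentan blocks receptors of endothelin and of angiotensin II. Kidneys were removed on day 12.

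Intercalated cells pump protons with a vacuolar H+-ATPase (V-ATPase), and some of its subunits serve here as their markers. Type A cells secrete acid into the urine and return bicarbonate to the blood through the anion exchanger Slc4a1, and type B cells secrete bicarbonate in exchange for chloride through pendrin, the product of Slc26a4. Both kinds occur in the cortex, type A cells also in the medulla, and both need the transcription factor Foxi1. The comparisons ask whether EIC changed the expression of these genes and whether sparsentan did so in mice given EIC.

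Library totals ran from 12662345 to 38651781 counts. The highest belonged to Control 652 and Control 651, and the latter was also the lowest of the 20 mice for Aqp6, Slc4a1, Atp6v1b1 and Atp6v1g3 and the highest for Atp6v0a4. Libraries also differed in the balance of long and short genes, measured as the mean log2 CPM (counts scaled to library size by TMM) of the longest 10% of genes minus that of the shortest 10%. The difference was highest in Control 651 (1.55) and EIC + S60 75 (1.47) and between 0.98 and 1.35 in the other mice. The kidneys also held very different amounts of medullary transcripts, as given below.

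Per length of transcript (RPKM, CPM divided by the exonic length in kilobases), the most abundant of the 10 was Car2, cytosolic carbonic anhydrase, at 245 ± 26.3 RPKM (mean ± SD over the 20 mice). Car2 lies on chromosome 3 (14886273 to 14900770, GRCm38, GENCODE vM21) and is known in proximal tubule as well as in intercalated cells. Atp6v0a4, the kidney a-subunit of the proton-conducting V0 sector, followed at 80.4 ± 12.4 RPKM. The lowest Car2 level (192 RPKM) lay above the highest of Atp6v0a4 (107 RPKM), whose lowest (60.1 RPKM) lay above every other member. Below these 2 the order was Rhcg (33.6 ± 4.20 RPKM), Aqp6 (32.2 ± 8.74), Atp6v1g3 (27.9 ± 3.82), Slc26a4 (24.3 ± 5.51), Atp6v1b1 (17.4 ± 2.30), Foxi1 (14.4 ± 2.64), Atp6v0d2 (12.6 ± 1.51) and Slc4a1 (12.3 ± 2.67), and each gene overlapped its neighbors in that order. Atp6v0a4 shares exonic bases with D630045J12Rik (259 bases, same strand) and Tmem213 (62 bases, other strand), so part of its count is uncertain.

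The genes also differed in how much they varied from mouse to mouse. The highest mouse had 2.93 times the CPM of the lowest for Aqp6, 2.44 times for Slc26a4, 2.40 times for Slc4a1 and 2.15 times for Foxi1, against 1.51 to 1.78 times for the other members. Differences between the 4 group means took 2.69% (Slc26a4) to 36.3% (Rhcg) of the variance of log2 CPM, with a median of 21.8% over the 10 members and 19.2% over all genes tested. Most of the variation in each member was therefore among mice of the same group.

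**Figure D1:**
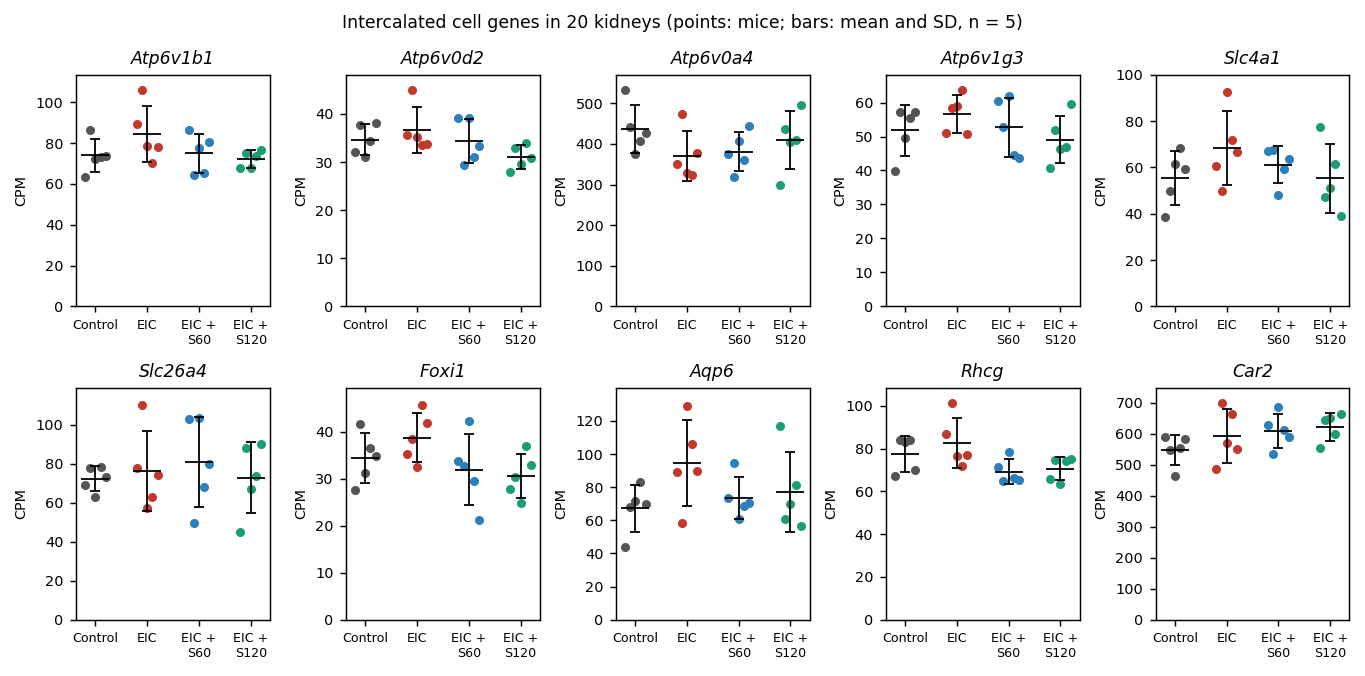
CPM of each of the 10 genes (vertical axes, from 0) in each mouse, by group (horizontal axes). Points are single mice, and bars give the mean and SD (n = 5). The groups overlap for every gene, and Aqp6 runs from 44.0 CPM in Control 651 to 129 CPM in EIC 67.

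In the kidneys of EIC-injected mice, 0 of the 10 genes passed the test against Control, where 2.97% of all genes tested did (416 of 13990). The log2 fold change (LFC, first group over second) was positive for 9 of the 10 and negative for Atp6v0a4, with a median of 0.12 against −0.01 over all genes. A single member, Aqp6, had an unadjusted p under 0.05, as did 16.8% of all genes (7.66% higher in EIC), and for none were the 5 mice of EIC all above or all below the 5 of Control (4.01% of all genes). DESeq2 also called none of the 10.

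Aqp6 (chromosome 15, 99601400 to 99605477) encodes an anion-permeable aquaporin in vesicles of type A cells. Its CPM was 44.0, 67.8, 71.6, 83.0 and 69.6 in Control 651 to 655 and 89.0, 58.5, 129, 106 and 90.1 in EIC 65 to 69. Thus 4 EIC mice lay above every Control mouse, while EIC 66 lay below all Control mice but Control 651. The LFC was 0.50 (SE 0.22, 95% interval 0.02 to 0.93, adjusted p = 0.254).

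Slc4a1 (chromosome 11, 102348824 to 102366203) encodes the basolateral anion exchanger of type A cells and also the main membrane protein of red blood cells. It stood at 38.6, 49.8, 61.5, 68.2 and 59.3 CPM in Control and 60.78, 49.7, 92.6, 72.0 and 66.4 CPM in EIC, in the order of the mouse numbers. The groups overlapped, with EIC 67 highest and EIC 66 lowest of the EIC mice, as for Aqp6. The LFC was 0.31 (SE 0.19, 95% interval −0.10 to 0.69, adjusted p = 0.442), and 0.17 without EIC 67. Of 9 red blood cell markers tested, 0 passed in EIC vs. Control (2.97% of all genes). At an unadjusted p under 0.05 stood 5 of 9, all higher (7.66% of all genes were higher and 16.8% either way). The summed level of the 9 was 388 to 616 CPM in Control, 565 to 1249 in EIC, 492 to 922 in EIC + S60 and 318 to 905 in EIC + S120. Hbb-bs, the adult beta-globin, had an LFC of 0.92 (SE 0.27, adjusted p = 0.0697). Of the list, Car1, a carbonic anhydrase of red blood cells, had too few counts to test and was at 0 in 15 libraries. With the mean of these markers as a covariate, the LFC of Slc4a1 was 0.30, as large as without it.

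Slc26a4 (chromosome 12, 31519827 to 31559969), pendrin of type B cells, was at 69.0, 77.7, 62.9, 78.1 and 73.3 CPM in Control 651 to 655 and 77.6, 110, 57.5, 62.7 and 74.4 CPM in EIC 65 to 69. EIC 66, the lowest EIC mouse for Aqp6, was the highest of all 20 mice for Slc26a4, and EIC 67, the highest for Aqp6, was the lowest EIC mouse. Its LFC was 0.08 (SE 0.22, 95% interval −0.40 to 0.50), and without EIC 66 it was −0.07.

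Among the V-ATPase subunits, Atp6v0a4 (chromosome 6, 38048483 to 38124586) had 532, 443, 374, 408 and 428 CPM in Control 651 to 655. In EIC 65 to 69 it had 349, 475, 330, 324 and 378 CPM. Control 651 was highest, and 3 EIC mice lay below every Control mouse. The LFC was −0.24 (SE 0.13, adjusted p = 0.362), and −0.15 without Control 651. Atp6v1b1, the kidney B-subunit of the ATP-hydrolyzing V1 sector (chromosome 6, 83742990 to 83758855), showed an LFC of 0.19 (SE 0.10, adjusted p = 0.351), or 0.11 without EIC 66. Atp6v1g3, a G-subunit of the stalk (chromosome 1, 138273738 to 138289462), showed 0.13 (SE 0.12), or 0.06 without Control 651, and Atp6v0d2, a d-subunit (chromosome 4, 19876841 to 19922605), 0.08 (SE 0.09).

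Atp6v0d2 is also known in macrophages and osteoclasts. Of 12 macrophage and monocyte markers, 6 rose in EIC vs. Control and none fell, 50% of the list against 2.97% of all genes. Among the 6 was Lyz2, the lysozyme of phagocytes (LFC 1.89, SE 0.37, adjusted p = 0.0165). The summed level of the 12 markers was 97.8 to 122 CPM in Control, 120 to 299 in EIC, 102 to 176 in EIC + S60 and 107 to 153 in EIC + S120, with none at 0 in any library. Their part in the Atp6v0d2 count was not tested.

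Foxi1 (chromosome 11, 34204338 to 34208089) had 27.6, 41.6, 31.2, 36.5 and 34.9 CPM in Control 651 to 655 and 35.3, 38.4, 32.4, 45.8 and 41.8 CPM in EIC 65 to 69, an LFC of 0.17 (SE 0.15, adjusted p = 0.609). EIC 68 and EIC 69 lay above every Control mouse, and the other EIC mice lay within the range of Control. The LFC was 0.11 without Control 651. Rhcg, a channel for ammonia that serves acid excretion (chromosome 7, 79593363 to 79617657), had an LFC of 0.09 (SE 0.09), and Car2 one of 0.12 (SE 0.09). In bulk RNA, fewer or more intercalated cells and less or more RNA per cell cannot be told apart for any of these values.

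**Figure D2:**
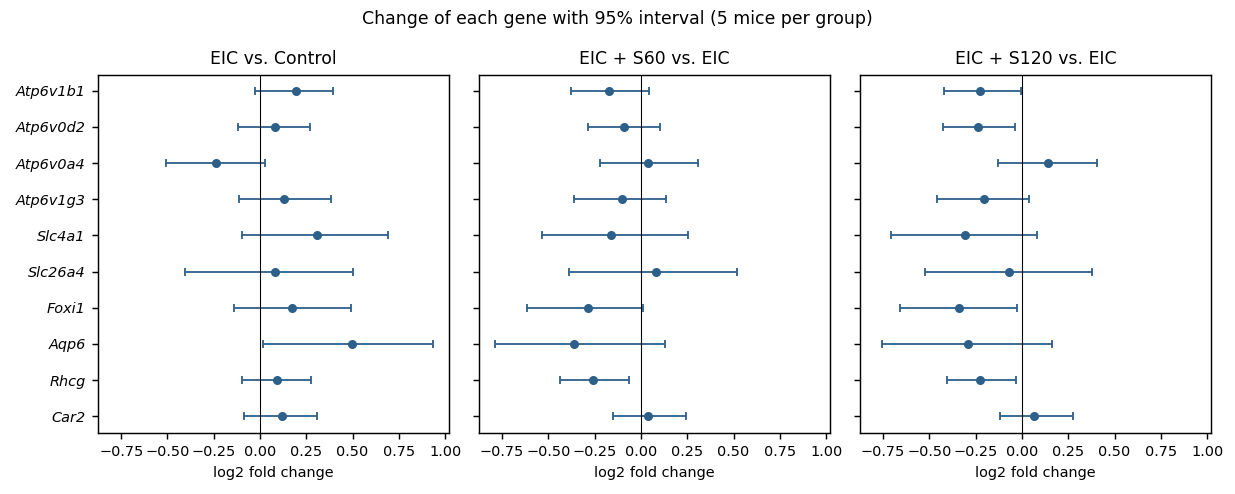
LFC (horizontal axis, log2 scale) of each gene with its 95% interval in the comparisons of EIC with Control and of each sparsentan dose with EIC (5 mice per group). In EIC vs. Control the Aqp6 interval, 0.02 to 0.93, is the widest, and in EIC + S120 vs. EIC the LFCs of 8 of the 10 genes are negative.

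With sparsentan, most of the genes had lower mean levels than in EIC, and none passed the test. Markers of neighboring tubule cells had lower mean levels too, as given below. In EIC + S60 vs. EIC, where edgeR called 0% of all genes (0 by edgeR and by limma-voom, 5 by DESeq2, 846 at an unadjusted p under 0.05), 0 of the 10 passed and 7 had a negative LFC. In EIC + S120 vs. EIC, where 0.0572% of genes passed, 0 of the 10 passed and 8 had a negative LFC, with a median of −0.23 against 0.00 over all genes. At an unadjusted p under 0.05 and lower stood Rhcg at 60 mg/kg (2.75% of all genes were lower and 6.05% either way), and Rhcg, Atp6v1b1, Atp6v0d2 and Foxi1 at 120 mg/kg (4.27% and 8.45%). For none of the 10 did the groups separate without overlap (0.886% and 1.2% of all genes). Both comparisons share the 5 EIC mice with each other and with EIC vs. Control, so their LFCs are not independent.

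Rhcg stood at 86.6, 101, 76.6, 72.0 and 77.1 CPM in EIC 65 to 69 and at 71.2, 64.8, 78.3, 66.4 and 65.1 CPM in EIC + S60 71 to 75. In EIC + S120 77 to 81 it stood at 65.9, 74.5, 63.5, 74.3 and 75.0 CPM, and in Control 651 to 655 at 67.0, 83.8, 82.9, 83.8 and 70.0 CPM. With sparsentan 4 of 5 mice lay below every EIC mouse at 60 mg/kg and 2 of 5 at 120 mg/kg. The LFC against EIC was −0.26 (SE 0.09, 95% interval −0.44 to −0.06, adjusted p = 0.738) at 60 mg/kg and −0.23 (SE 0.09, 95% interval −0.41 to −0.03, adjusted p = 0.484) at 120 mg/kg. Without EIC 66, the highest mouse, these were −0.19 and −0.16.

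Foxi1 stood at 33.7, 32.8, 42.3, 29.6 and 21.3 CPM in EIC + S60 71 to 75 and at 27.7, 30.3, 24.9, 36.9 and 32.9 CPM in EIC + S120 77 to 81. At 120 mg/kg, 3 of 5 mice lay below every EIC mouse, and EIC + S60 75 was the lowest of all 20 mice. The LFC against EIC was −0.28 (SE 0.15, adjusted p = 0.827) at 60 mg/kg, which was −0.16 without EIC + S60 75, and −0.34 (SE 0.15, 95% interval −0.66 to −0.03, adjusted p = 0.558) at 120 mg/kg.

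The V-ATPase subunits did not all have the same sign. At 120 mg/kg the LFC against EIC was −0.23 for Atp6v1b1 (SE 0.10, adjusted p = 0.564), −0.24 for Atp6v0d2 (SE 0.09, adjusted p = 0.498), −0.20 for Atp6v1g3 (SE 0.12) and 0.14 for Atp6v0a4 (SE 0.13). Without EIC 66 it was −0.14 for Atp6v1b1 and 0.24 for Atp6v0a4. At 60 mg/kg these were −0.17, −0.09, −0.10 and 0.04, in the same order.

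Aqp6 was at 73.7, 94.8, 61.1, 68.6 and 70.2 CPM in EIC + S60 71 to 75 and at 117, 60.9, 70.1, 81.2 and 56.6 CPM in EIC + S120 77 to 81. Its LFC against EIC was −0.36 (SE 0.22, 95% interval −0.79 to 0.13) at 60 mg/kg, which was −0.22 without EIC 67, and −0.29 (SE 0.22) at 120 mg/kg. The latter was −0.49 without EIC + S120 77 and −0.16 without EIC 67. Slc4a1 had LFCs of −0.16 (SE 0.19) and −0.31 (SE 0.19) at 60 and 120 mg/kg, which also turned on single mice. At 60 mg/kg Slc4a1 was −0.03 without EIC 67, −0.27 without EIC 66 and −0.09 without EIC + S60 73. At 120 mg/kg it was −0.46 without EIC + S120 77 and −0.17 without EIC 67.

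Slc26a4 spread widely under sparsentan, at 103, 49.4, 104, 68.3 and 79.8 CPM in EIC + S60 71 to 75 and at 45.2, 88.0, 67.0, 73.9 and 90.0 CPM in EIC + S120 77 to 81. Its LFCs against EIC were 0.08 and −0.07 (SE 0.22 each) at 60 and 120 mg/kg, with 95% intervals of −0.39 to 0.52 and −0.53 to 0.38. Car2 had LFCs of 0.04 and 0.07 (SE 0.09 each). For Slc26a4 and Car2 these values were smaller than the spread between mice, and their intervals reach both signs.

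Against Control, 0 of the 10 passed in either sparsentan group, where 1.29% of all genes did in EIC + S60 and 5.55% in EIC + S120, and none had an unadjusted p under 0.05 (12.7% and 20% of all genes) or groups without overlap (3.82% and 5.82% of all genes). LFCs ran from −0.20 (Atp6v0a4) to 0.16 (Slc26a4) in EIC + S60 vs. Control and from −0.17 (Foxi1) to 0.20 (Aqp6) in EIC + S120 vs. Control. Between the doses, EIC + S120 vs. EIC + S60, 0 of the 10 passed (0.0643% of all genes), 0 had an unadjusted p under 0.05 (8.08%) and 0 had groups without overlap (1.66%), with LFCs from −0.15 (Slc26a4) to 0.10 (Atp6v0a4). The 95% intervals of the 10 genes in the dose comparison lay between −0.59 and 0.49.

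From kidney to kidney, Aqp6 of type A cells and Slc26a4 of type B cells ran in opposite directions over the 20 mice and in 3 of the 4 groups. Of the 45 pairs of members, 13 had a Pearson correlation of log2 CPM with an adjusted permutation p under 0.05, 10 of them positive and 3 negative. The sign of all 13 was the same when each mouse was taken as a deviation from its group mean.

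Aqp6 and Slc4a1, both of type A cells, rose and fell together over the 20 mice (Pearson's r = 0.92, Spearman's rho = 0.94, permutation p = 1e-05 for each, the smallest that 100000 permutations can give, adjusted p = 0.000225). The r was 0.90 without the 2 mice farthest from the median of Slc4a1 and 0.76 to 0.97 within the groups. Both ran against Atp6v0a4. For Aqp6 and Atp6v0a4 r was −0.89 (rho −0.83, permutation p = 1e-05 and 4.0e-05, adjusted p = 0.000225, −0.82 without the 2 farthest mice), with r between −0.96 and −0.75 within the groups. For Slc4a1 and Atp6v0a4 r was −0.83 (rho −0.74, permutation p = 3.0e-05 and 0.00034, adjusted p = 0.00045, −0.76 without the 2 farthest mice). The uncertain count of Atp6v0a4 noted above bears on both of these values. Which cells the Atp6v0a4 RNA came from was not tested.

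Slc26a4, of type B cells, ran against Aqp6 (r = −0.62, rho = −0.61, permutation p = 0.00331 and 0.00538, adjusted p = 0.0135) and was −0.49 without the 2 farthest mice. Its correlation with Slc4a1 was −0.53 (rho −0.53, permutation p = 0.0167 and 0.0178, −0.62 without the 2 farthest mice) and did not pass (adjusted p = 0.0528). Both were negative in 3 of the 4 groups and positive in the other. In contrast, Slc26a4 rose and fell with Atp6v0d2 (r = 0.74, rho = 0.60, permutation p = 0.00015 and 0.00569, adjusted p = 0.00112, 0.58 without the 2 farthest mice) and with Atp6v1b1 (r = 0.68, rho = 0.67, permutation p = 0.00099 and 0.00148, adjusted p = 0.00495, 0.62 without the 2 farthest mice). It did so with Atp6v0a4 too (r = 0.64, rho = 0.67, permutation p = 0.00257 and 0.00197, adjusted p = 0.0116, 0.69 without the 2 farthest mice), with a positive r in all 4 groups. The uncertain count of Atp6v0a4 bears on this value as well.

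Atp6v1b1 and Atp6v0d2, subunits of the same pump, had r = 0.82 (rho = 0.75, permutation p = 4.0e-05 and 0.0002, adjusted p = 0.00045, 0.73 without the 2 farthest mice) and were positive in all 4 groups. Rhcg rose and fell with Atp6v1b1 (r = 0.77, rho = 0.64, permutation p = 0.00012 and 0.00355, adjusted p = 0.00108, 0.54 without the 2 farthest mice). Car2 passed with no other member. The mice fall in 4 treatment groups and their libraries differ in depth and in medullary transcripts, which these correlations share.

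**Figure D3:**
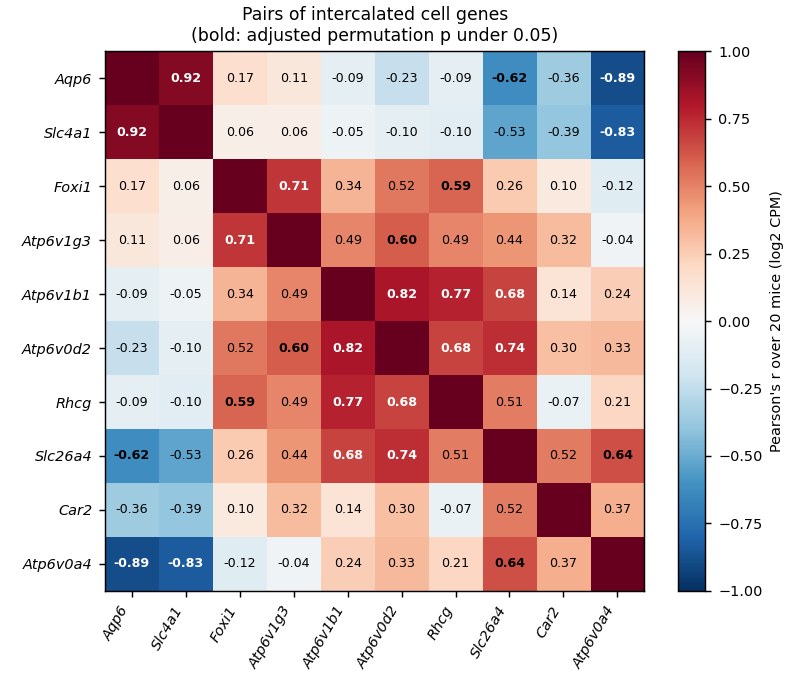
Pearson's r of log2 CPM over the 20 mice for each of the 45 pairs of genes (rows and columns, color scale from −1 to 1), with pairs of an adjusted permutation p under 0.05 in bold. Aqp6 and Slc4a1 (0.92) stand at one corner and run against Atp6v0a4 (−0.89 and −0.83), while Atp6v1b1, Atp6v0d2, Rhcg and Slc26a4 form a positive block.

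**Figure D4:**
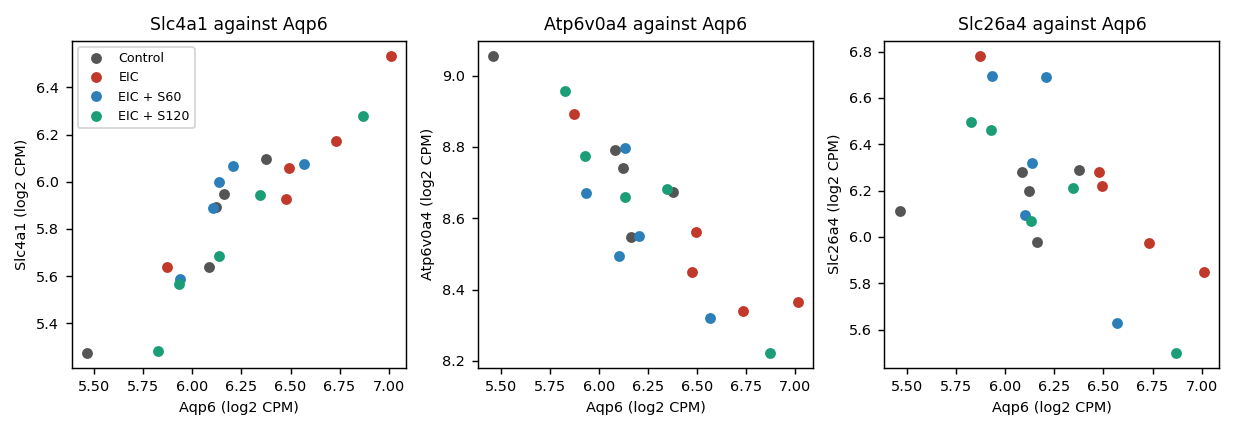
Log2 CPM of Slc4a1, Atp6v0a4 and Slc26a4 (vertical axes) against log2 CPM of Aqp6 (horizontal axes), 1 point per mouse, colored by group. Slc4a1 rises with Aqp6 (r = 0.92), and Atp6v0a4 and Slc26a4 fall (r = −0.89 and −0.62), with the 4 groups intermixed.

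Of 25 other intercalated cell genes, 9 had a positive r with Aqp6 and a negative one with Slc26a4, 13 the reverse, and 3 the same sign with both. Because Aqp6 and Slc26a4 ran against each other (r = −0.62), opposite signs would be frequent in any list of genes. The share over all genes was not computed, so these counts do not set the 25 apart. The genes named next were chosen after their values were seen. Slc4a9, an anion exchanger of type B cells, had r = 0.82 with Slc26a4 and −0.59 with Aqp6. Insrr, an alkali-sensing receptor of type B cells, had r = 0.83 and −0.45, and Oxgr1, the receptor of type B cells for oxoglutarate, r = 0.85 and −0.57. On the other side, Kit, a receptor tyrosine kinase of type A cells, had r = 0.78 with Aqp6 and −0.42 with Slc26a4. Dmrt2, a transcription factor of type A cells, had r = 0.81 and −0.50. Hmx2, a transcription factor, had r = −0.50 with Aqp6 and 0.67 with Slc26a4, the same signs as Slc4a9, Insrr and Oxgr1. Not all genes took the side of their cell type. Slc4a8, a bicarbonate exchanger known in type B cells, had r = 0.62 with Aqp6 and −0.66 with Slc26a4. Slc12a7, a potassium-chloride cotransporter, took neither side, with r = 0.00076 and 0.059. These are descriptions over 20 mice, and no test was made of them.

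Foxi1 had r = 0.17 with Aqp6 and 0.26 with Slc26a4, neither of which passed. It rose and fell with Rhcg (r = 0.59, rho = 0.65, permutation p = 0.0069 and 0.00287, adjusted p = 0.0239, 0.65 without the 2 farthest mice), and with Atp6v0d2 it passed by rank (rho = 0.63, permutation p = 0.00322, adjusted p = 0.016) but not by r (0.52, permutation p = 0.0176, adjusted p = 0.0528, 0.49 without the 2 farthest mice). It also rose and fell with Atp6v1g3 (r = 0.71, rho = 0.69, permutation p = 0.00027 and 0.00102, adjusted p = 0.00174, 0.68 without the 2 farthest mice). Both genes also moved with the balance of long and short genes. Over the 20 mice r with that measure was −0.77 for Atp6v1g3 (rho −0.68, permutation p = 2.0e-05 and 0.00105, adjusted p = 0.0002 over 10 members, −0.65 without the 2 farthest mice). For Foxi1 it was −0.58 (rho −0.47, permutation p = 0.00686 and 0.0384, adjusted p = 0.0343) but −0.35 without Control 651 and EIC + S60 75, on which it rests. With that measure as a covariate, chosen after the data were seen, the LFC in EIC vs. Control was −0.11 for Atp6v1g3 and −0.05 for Foxi1, and at 60 mg/kg against EIC it was 0.10 for Atp6v1g3.

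Foxi1 is a forkhead factor, and genes such as Atp6v1b1 and Slc26a4 are known to depend on it. Promoters (250 bases before to 50 after the start, RefSeq, GRCm38.p6) could be matched for 7 of the 10 genes, not for Slc4a1, Atp6v0d2 and Car2. They were searched on both strands for the forkhead-type letters TGTTTA and TATTTA, which do not overlap here. Among all 32851 promoters of the table, 13.4% hold the former, 13.7% the latter and 24.1% either. Of the 7 promoters 2 hold either, those of Atp6v1b1 and Slc26a4, which is near the share of all promoters that do. Over the 20 mice Foxi1 passed with neither gene (r = 0.34 with Atp6v1b1, adjusted permutation p = 0.272, and 0.26 with Slc26a4, adjusted permutation p = 0.416). The promoters of Rhcg and Atp6v1g3, with which Foxi1 did pass, hold neither. For Atp6v1b1 and Slc26a4 the stretch from 150 to 51 bases before their starts is shown because it holds the letters. It is given 5′ to 3′ on the strand of the gene, with the matched letters in capitals (TAAATA is TATTTA read on the other strand). It lies at chr6:83742867-83742966 (plus strand) for Atp6v1b1 and chr12:31560035-31560134 (minus strand) for Slc26a4.
Atp6v1b1: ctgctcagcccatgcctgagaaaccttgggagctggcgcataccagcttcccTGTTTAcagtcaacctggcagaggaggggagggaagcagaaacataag
Slc26a4: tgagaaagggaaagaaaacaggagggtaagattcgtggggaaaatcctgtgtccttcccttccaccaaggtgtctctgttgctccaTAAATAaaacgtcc
The matches start 98 and 64 bases before the starts of Atp6v1b1 and Slc26a4. They are descriptions of letters and not sites of binding, and the 5 other promoters lack only these letters in these windows.

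Aqp6, Slc4a1 and Slc26a4 also moved with the level of medullary transcripts in each kidney sample. A list of 7 medullary markers was set up after the correlations had been seen. It holds the urea transporters Slc14a2 and Slc14a1, the aldose reductase Akr1b3, and the osmolyte transporters Slc5a3, Slc6a12 and Slc6a6, among others. Of the 7, 2 had already been noticed beside Aqp6 or Slc26a4, and 1 is also in the list of other intercalated cell genes used here. Their summed level was 714 to 1435 CPM in Control, 634 to 1001 in EIC, 633 to 874 in EIC + S60 and 657 to 1189 in EIC + S120, and none was at 0 in any library. A large part of that sum is Slc6a6 (464 to 497 CPM in the group means), which was lowest in Control 653 and highest in Control 651. The mean log2 CPM of the 7 was used for the correlations. The markers were not scaled, so those that vary most between mice weigh most in its variation. The SD of log2 CPM was 2.20 for Slc14a2 and 1.34 for Slc6a12, which fell to 3 counts, against 0.54 for Slc5a3 and 0.19 for Slc6a6. The mean of the 7 was 4.51 to 6.78 in Control, 3.25 to 5.92 in EIC, 3.79 to 5.96 in EIC + S60 and 4.36 to 6.38 in EIC + S120. Control 651 had the second highest sum of the Control mice and the lowest mean. Slc14a2, of the inner medullary collecting duct, ranged from 5 counts in EIC 66 to 1953 in Control 653, a range of 8.27 on the log2 CPM scale.

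With the mean log2 CPM of these markers, Aqp6 rose (r = 0.68, rho = 0.79, permutation p = 0.00102 and 5.0e-05, adjusted p = 0.0025 over 10 members, 0.82 without the 2 farthest mice). Slc4a1 did so too (r = 0.67, rho = 0.78, permutation p = 0.00125 and 9.0e-05, adjusted p = 0.0025, 0.78 without the 2 farthest mice). Slc26a4 fell (r = −0.81, rho = −0.76, permutation p = 6.0e-05 and 0.00019, adjusted p = 0.0003, −0.81 without the 2 farthest mice), as did Car2 (r = −0.76, rho = −0.73, permutation p = 6.0e-05 and 0.00046, adjusted p = 0.0003, −0.62 without the 2 farthest mice). Atp6v0a4 also fell (r = −0.68, rho = −0.73, permutation p = 0.00091 and 0.00047, adjusted p = 0.0025, −0.72 without the 2 farthest mice). The sign of these 5 was the same in each of the 4 groups. Atp6v0d2 passed by r (−0.59, permutation p = 0.00615, adjusted p = 0.0102) but not by rank (rho −0.36, permutation p = 0.115) and was −0.37 without the 2 farthest mice. For the other 4 members r lay between −0.46 and −0.13 and did not pass.

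**Figure D5:**
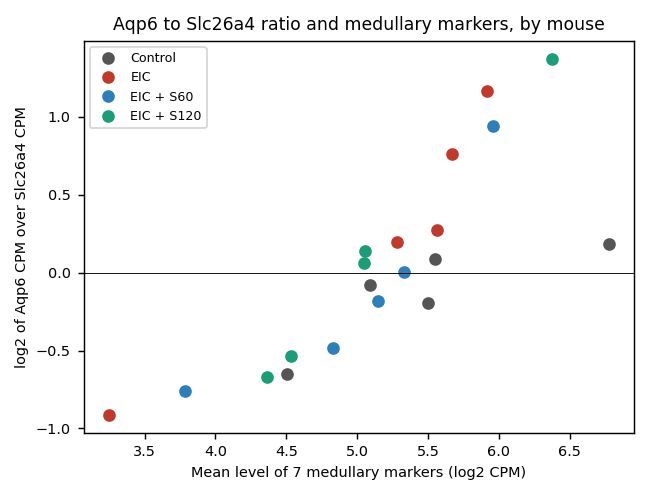
Log2 of Aqp6 CPM over Slc26a4 CPM (vertical axis) against the mean log2 CPM of the 7 medullary markers (horizontal axis), 1 point per mouse, colored by group. The ratio runs from −0.91 in EIC 66 to 1.37 in EIC + S120 77, the groups are intermixed, and the marker mean runs from 3.25 in EIC 66 to 6.78 in Control 653.

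The log2 ratio of Aqp6 to Slc26a4 CPM ranged from −0.65 to 0.19 in Control, −0.91 to 1.17 in EIC, −0.76 to 0.94 in EIC + S60 and −0.67 to 1.37 in EIC + S120. The 3 groups given EIC each held mice above and below the whole range of Control.

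Since medullary transcripts moved with these genes, the test was repeated with the mean of the 7 markers as a covariate, an alternative chosen after these correlations had been seen. In that fit 3 of the 10 members passed in EIC vs. Control, where 5.81% of all genes did. Aqp6 was higher in EIC (LFC 0.59, adjusted p = 0.00481), Slc4a1 was higher (0.39, adjusted p = 0.0495) and Atp6v0a4 was lower (−0.32, adjusted p = 0.013). With the 5 markers that had not been noticed beforehand the same 3 passed, where 6.1% of all genes did. Adjusted p was 0.00628 (Aqp6), 0.0455 (Slc4a1) and 0.0113 (Atp6v0a4), with LFCs of 0.63, 0.42 and −0.34 in the same order. Without a covariate these LFCs were nearer to no change, at 0.50, 0.31 and −0.24. The mean of the 7 markers was itself spread unevenly over EIC and Control. Its lowest value was in EIC 66 (3.25) and its highest in Control 653 (6.78), with medians of 5.57 in EIC and 5.50 in Control. The part of this spread in the LFCs was not tested. The 5 are part of the same list, set up after the correlations had been seen, so their fit is not an independent check. In repeats of the fit with the 7 markers that each lacked 1 of the 20 libraries, Aqp6 passed in 20 of 20 of these fits (adjusted p up to 0.0182) and Atp6v0a4 in 19, all but that without Control 651 (adjusted p = 0.061). Slc4a1 passed in 8, and lost its call without any 1 of Control 651 to 653, EIC 66 to 69, EIC + S60 72, 73 and 75 and EIC + S120 77 and 78, with an adjusted p of up to 0.158 (without EIC 67). Slc26a4 had an LFC of −0.08 (adjusted p = 0.781) in this fit.

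In EIC + S60 vs. Control 1 member passed with the 7 markers as a covariate, Atp6v0a4 (LFC −0.29, adjusted p = 0.0386), where 1.93% of all genes did (1.82% with 5 markers). It passed in 9 of 20 repeats that each lacked 1 library, and not without Control 651 to 654, EIC + S60 71 to 74 or EIC + S120 78 to 80 (adjusted p up to 0.126, without EIC + S60 72). Of the 4 other comparisons, none had a member past the threshold with 7 or 5 markers. Of all genes, 0% passed at 60 mg/kg against EIC with 7 or 5 markers, 0.207% and 0.25% at 120 mg/kg against EIC, 7.46% and 7.34% in EIC + S120 vs. Control, and 0.365% and 0.379% between the doses. In EIC + S120 vs. Control Atp6v0d2 passed in the repeat without Control 651 (LFC −0.28, adjusted p = 0.0138) and Aqp6 in that without Control 654 (LFC 0.40, adjusted p = 0.0411). Whether the part of the kidney taken for RNA differed between mice was not tested, and the covariate was picked for its relation to these very genes.

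Of the 25 other intercalated cell genes, only Avpr1a passed in any comparison (4% of the list, against 2.97%, 1.29% and 5.55% of all genes in the 3 comparisons with Control). Avpr1a, the vasopressin V1a receptor of intercalated cells, was at 11.7 CPM in Control and fell in EIC (8.15 CPM, LFC −0.52, SE 0.13, adjusted p = 0.0331), in EIC + S60 (8.08 CPM, LFC −0.53, adjusted p = 0.0448) and in EIC + S120 (LFC −0.73, adjusted p = 0.00154), each against Control. Slc26a11, an anion transporter, showed −0.31 in EIC vs. Control (SE 0.10, adjusted p = 0.103). Of the 18 V-ATPase subunits that all cells use, only Atp6v1d, the D-subunit of the rotor, passed, and rose in EIC + S120 vs. Control (LFC 0.31, SE 0.07, adjusted p = 0.0148). That is 5.56% of the list, near the 5.55% of all genes.

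Of 20 acid-base genes of other nephron segments, 1 rose and 2 fell in EIC vs. Control, 15% of the list against 2.97% of all genes. Pck1, an enzyme of gluconeogenesis in the proximal tubule, rose (LFC 0.58, SE 0.15, adjusted p = 0.0335). Among those that fell was Car5b, a mitochondrial carbonic anhydrase (LFC −0.55, SE 0.11, adjusted p = 0.0121). In EIC + S120 vs. Control 2 of the 20 rose and 2 fell, 20% of the list against 5.55% of all genes, with an LFC of 1.07 for Pck1 (SE 0.15, adjusted p = 0.000114), −0.67 for Car5b (SE 0.11, adjusted p = 0.0011) and −0.50 for Slc38a3, a glutamine transporter (SE 0.12, adjusted p = 0.0188). In EIC + S60 vs. Control Pck1 alone passed, and against EIC none of the 20 did at either dose.

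Among the neighbors of intercalated cells, 1 of 11 principal cell markers tested passed, in EIC + S120 vs. Control alone (9.09% of the list against 5.55% of all genes). This was Aqp3, the basolateral water channel of principal cells, which fell (LFC −0.45, SE 0.09, adjusted p = 0.00291). All 11 had a negative LFC in EIC + S120 vs. EIC (median −0.23, as for the 10 members) and 9 of 11 in EIC + S60 vs. EIC (median −0.04). Of all genes, 49.5% and 50.6% had a negative LFC in these comparisons. Markers of the distal convoluted and connecting tubule (8), proximal tubule (9) and thick ascending limb (5) had 0 calls in all 6 comparisons. Of the 8 distal and connecting tubule markers, however, all had a negative LFC against EIC at both doses, with medians of −0.33 at 60 mg/kg and −0.42 at 120 mg/kg. At 120 mg/kg 4 of 8 had an unadjusted p under 0.05 (4.27% of all genes were lower and 8.45% either way). Of the 5 thick ascending limb markers 4 had a negative LFC against EIC at each dose (medians −0.16 at 60 mg/kg and −0.06 at 120 mg/kg). Of the 9 proximal tubule markers 3 did at 60 mg/kg and 4 at 120 mg/kg. The lower levels of the members under sparsentan thus stood beside lower levels of markers of neighboring tubule cells, and their part in the result was not tested.

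The genes whose pattern over the 20 mice was most like the mean of the 10 members, each scaled to mean 0 and SD 1, included Hepacam2 (r = 0.86), Rhbg (0.85), Stxbp2 (0.81), Azgp1 (0.80), Atp6v1c2 (0.79), Cdc42se2 (0.78), S100g (0.72), Bpgm (0.71) and Spink8 (0.71). Among them Rhbg, an ammonia transporter, Atp6v1c2, a C-subunit of the V-ATPase, and Hepacam2 are known intercalated cell genes and stood in the list of 25. Of the 10 genes most alike, 5 were also among the 10 when deviations from the group means were used.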

How the data were processed

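The authors deposited unnormalized counts for each gene, with a separate library for every mouse, from poly(A)-selected kidney RNA. Per the labels, the submitters' processing notes name Trimmomatic 0.36, STAR 2.5.2b, featureCounts of Subread 1.5.2 and GRCm38. Which annotation and strand setting featureCounts ran with is not given in the sources used here. Groups came from the labels, doses and days from the study's methods. The members and lists were chosen with earlier results of these data known.

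A gene was kept if 5 or more libraries held 10 or more counts (13990 genes), scaled by TMM, and fitted over all 20 libraries with 1 coefficient per group by edgeR 4.0.16 (R 4.3.3). Comparisons used its robust quasi-likelihood test, two-sided, p-values adjusted by Benjamini-Hochberg across the whole table, and a threshold of 0.05. SEs and 95% intervals came from limma 3.58.1 (limma-trend, log2 CPM, prior count 2). RPKM used exonic lengths of GENCODE vM21, matched to 15388 of 15780 symbols. Correlations were tested by 100000 permutations, two-sided, and adjusted over 45 pairs or 10 members. The script for the test was tested on simulated counts. Alternatives were RLE scaling, DESeq2 1.42.0, limma-voom, other count filters, only the libraries compared, leaving out libraries, and 4 covariates (1 planned). Depth limits precision: the members had 408 to 21841 counts per library. Named were all members, up to 4 genes with the smallest p per list or any of a list of 12 or fewer, and the 10 genes most like the members. Slc4a9, Insrr, Oxgr1, Kit, Dmrt2, Hmx2, Slc4a8, Slc12a7, the medullary markers and the genes closest to single members were chosen after their values were seen. Values of some single genes are not reported here.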

Additional observations from a re-analysis of the deposited data

Results flagged for a closer look

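Of 52 sets of 5 mice examined (the 10 genes, the medullary sum, the balance of long and short genes and the ratio of Aqp6 to Slc26a4, in each group), 3 held a mouse whose gap to the nearest other exceeded Dixon's 95% critical value of 0.71 of the range, where chance gives about 1 in 20. Atp6v0d2 was at 45.04 CPM in EIC 66, with the other EIC mice at 33.4 to 35.6 CPM. The summed medullary markers were at 1435 CPM in Control 653, with the other Control mice at 714 to 862 CPM. The mean log2 CPM of long minus short genes was 1.55 in Control 651 and 1.18 to 1.28 in the other Control mice. The causes were not tested.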

How the results depend on the processing

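No paired analysis was possible because the 4 groups share no mouse numbers. The count of members called was 0 in all 6 comparisons with DESeq2, limma-voom, other scaling and filters, fewer libraries and the red blood cell covariate. Without 1 library it stayed at 0 to 0 (lowest adjusted p 0.0997, Aqp6 in EIC vs. Control without EIC 66). The covariates for medulla and gene length were added after the data were seen. With the 7 medullary markers the count was 3 in EIC vs. Control and 1 in EIC + S60 vs. Control. With the 5 of the same list not noticed beforehand it was again 3 and 1, which is not an independent check. Of the 10 genes most like the members, 5 stayed when deviations from group means were used.

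Of the 60 LFCs (10 genes in 6 comparisons), the 36 printed in the text or at the ends of a range were followed through all settings: 18 of 1116 values turned sign, and 1090 kept direction and side of the threshold. For the other 24, all under 0.19 in size, 13 values turned sign with a covariate, among them Slc26a4 in EIC + S120 vs. Control (0.012, and −0.17 with 7 medullary markers). Slc26a4 was −0.075 and −0.11 (7 and 5 markers) in EIC vs. Control and −0.037 and −0.064 in EIC + S60 vs. Control. With the long minus short measure Atp6v1g3 was −0.11 and Foxi1 −0.046 in EIC vs. Control, and Atp6v0a4 −0.014 and Atp6v1g3 0.097 in EIC + S60 vs. EIC. Without single libraries Slc26a4 lay between −0.070 and 0.17 in EIC vs. Control, −0.030 and 0.23 in EIC + S60 vs. EIC and −0.16 and 0.086 in EIC + S120 vs. EIC. In EIC + S60 vs. EIC Car2 lay between −0.026 and 0.092 and Atp6v0a4 between −0.021 and 0.13. The causes were not tested.

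Calls over all genes moved more. EIC vs. Control had 416, 689 with DESeq2, 143 with only the 10 libraries compared, 124 without the 2 deepest Control libraries, 127 with red blood cell markers, 813 and 853 with 7 and 5 medullary markers, 91 with the long minus short measure, and 233 (without EIC 68) to 465 without 1 library. EIC + S60 vs. EIC had 0, and 5 with DESeq2. EIC + S120 vs. EIC had 8, 64 with DESeq2, and 1 to 14 without 1 library. EIC + S60 vs. Control had 180, 348 with DESeq2, 119 without the 2 deepest Control libraries, 100 with red blood cell markers, and 103 (without EIC + S60 73) to 224. EIC + S120 vs. Control had 777, and 489 (without EIC + S120 81) to 1172 (without EIC + S120 77). The doses differed in 9 genes, 83 with DESeq2, and 2 to 54 (without EIC + S120 77).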

Other observations

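Each member's closest genes over the 20 mice were also listed, as a description. Edn3, which encodes endothelin 3, had r = 0.92 with Aqp6 and −0.91 with Atp6v0a4, the most positive for the former and the most negative for the latter among all genes tested. The genes most like Car2 were Ctsz (r = 0.92), a lysosomal protease, Glmp (0.91), a lysosomal membrane protein, Spp2 (0.91) and Gpx3 (0.90), a plasma glutathione peroxidase made in the proximal tubule. None of these 4 is in the lists of intercalated cell genes used here, and Car2 had r = −0.39 with Slc4a1. The genes most like Atp6v0a4, Cfl2 (r = 0.89), Coq8a (0.88), Adra1a (0.85) and Aldh3a2 (0.85), are not in those lists either. Rhcg had r = 0.82 with Scnn1a, a subunit of the epithelial sodium channel of principal cells. Atp6v1g3 had r = 0.81 with Atp6v1f, another V-ATPase subunit, and 0.82 with Polr2e, a subunit of RNA polymerases.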
